A study of Mus musculus with 9 samples.

Results

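The comparison described here set the Smarcc1 knockdown against the non-silencing control (Nons) at day 5 of differentiation in a NOMe-seq experiment on mouse embryonic stem cells (mESCs). NOMe-seq lets a methyltransferase mark GpC cytosines wherever DNA is not wrapped by a nucleosome or covered by another protein, and bisulfite sequencing then counts the marks, so a higher percent GpC methylation means more accessible chromatin. The members were all windows of the deposited GpC table with a value in both day 5 libraries, 832674 of the 833294 windows in the series, after windows of the Y chromosome and the mitochondrial genome were set aside. They comprised 789524 autosomal and 43150 X windows. Windows that contained the annotated 5′ end of a gene, protein-coding, long non-coding RNA or TEC, were counted as promoters, which gave 30211 autosomal and 1048 X promoter windows.

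All cells were a female FVB/CAST F1 mESC line, differentiated from 2i medium by weaning into DME HiHi medium. The control and the knockdown alike were transduced with an shRNA virus on day 2 and put under puromycin on day 3, so the 2 libraries shared infection and drug and differed in the hairpin. The series held 9 libraries, 1 from undifferentiated cells at day 0 and 1 from each arm at days 4, 5, 6 and 7. There was 1 library a side and no replicate at any day, so no difference below has a replicate check, no test was made, and every value describes these libraries only. The depth behind the percentages is unknown, because no read counts were among the values used. A lower percentage in every cell and fewer cells with open chromatin cannot be told apart in such bulk values.

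SMARCC1 is a core scaffold subunit of the BAF (SWI/SNF) complex, which uses ATP to slide and evict nucleosomes and is known to keep promoters and enhancers open. Promoters rich in CpG dinucleotides (CpG islands) usually belong to widely expressed genes and to developmental regulators and hold a stretch free of nucleosomes, while CpG-poor promoters usually belong to tissue-restricted genes and are open only where the gene is in use. In mESCs the complex carries a particular set of subunits and works beside the pluripotency network.

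The hairpin of the knockdown is named Smarcc1.6 among the study's oligos, which matches the library titles once the point is left out. Its 22-nucleotide guide and that of Nons are shown because they are the designed difference between the 2 libraries, and are written in lower case throughout.
Smarcc1.6 guide: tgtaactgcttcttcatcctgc
Nons guide: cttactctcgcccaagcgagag
The sequence complementary to the Smarcc1.6 guide, gcaggatgaagaagcagttaca, lay at chr9:110177472-110177493 on the plus strand of GRCm38 (mm10), in a coding exon of 4 Smarcc1 transcripts (exon 13 of the first of them), and it matched 5 GENCODE M21 transcripts, all of Smarcc1. The complement of the Nons guide matched 0 transcripts. NOMe-seq measures no RNA or protein, so the loss of Smarcc1 itself could not be checked in these files.

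Accessibility at the start sites of Smarcc1 was read mainly from 2 windows. The annotated 5′ end of the gene, used by the single transcript Smarcc1-202, lay in the window chr9:110117185-110119155, which also held the start of Dhx30, and stood at 39.2% in Nons and 44.9% in the knockdown at day 5. The starts of 5 further transcripts lay in chr9:110131345-110133481, at 58.2% in Nons and 41.8% in the knockdown. That second window was at 10.8% at day 0, and at days 4, 6 and 7 it was at 15.9%, 27.6% and 19.8% in Nons against 34.9%, 23.2% and 0% in the knockdown. The knockdown was thus below Nons at days 5, 6 and 7 and above it at day 4, and single windows moved by as much between neighbouring days of 1 arm as between arms. The starts of 3 more transcripts inside the gene lay in windows with centred differences (defined below) of -10.8, 2.21 and -3.87 points.

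Promoter sequences differ in how many GpC sites they offer to the enzyme, so 7 stretches are shown, each the 200 bases before the annotated start in the GRCm38 reference, written along the gene, with every GpC that the assay can read on at least 1 strand in capitals (a GpC whose cytosine is not followed by G; a GpC at the very ends of a stretch is left in lower case). The reference is the C57BL/6J strain and not FVB or CAST. The first 4 came from promoters with high CpG content, Bmi1 (chr2:18676818-18677017, plus strand), Neurog2 (chr3:127632935-127633134, plus), Ier5l (chr2:30474220-30474419, minus) and Phf10 (chr17:14961274-14961473, minus). The other 3 came from promoters with low CpG content, Ephx4 (chr5:107402536-107402735, plus), Olfr1289 (chr2:111480619-111480818, plus) and Olfr1131 (chr2:87626904-87627103, plus). Their values follow with the gene lists.
Bmi1: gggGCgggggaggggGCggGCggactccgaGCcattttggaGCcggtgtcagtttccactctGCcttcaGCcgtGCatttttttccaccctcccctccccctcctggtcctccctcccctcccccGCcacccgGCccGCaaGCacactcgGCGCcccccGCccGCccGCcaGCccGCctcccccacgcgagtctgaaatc
Neurog2: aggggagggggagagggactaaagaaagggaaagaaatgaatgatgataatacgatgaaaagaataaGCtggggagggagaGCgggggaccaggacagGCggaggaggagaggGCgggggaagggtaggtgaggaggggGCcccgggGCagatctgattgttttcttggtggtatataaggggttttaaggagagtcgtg
Ier5l: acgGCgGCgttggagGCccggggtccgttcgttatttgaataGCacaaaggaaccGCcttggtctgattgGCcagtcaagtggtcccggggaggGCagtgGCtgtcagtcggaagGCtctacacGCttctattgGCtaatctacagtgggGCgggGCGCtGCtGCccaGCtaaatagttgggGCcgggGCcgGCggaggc
Phf10: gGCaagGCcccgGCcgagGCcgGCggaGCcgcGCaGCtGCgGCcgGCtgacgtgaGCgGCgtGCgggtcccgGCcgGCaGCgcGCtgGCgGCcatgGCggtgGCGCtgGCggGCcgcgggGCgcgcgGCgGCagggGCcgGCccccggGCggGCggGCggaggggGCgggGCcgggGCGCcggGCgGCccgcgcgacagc
Ephx4: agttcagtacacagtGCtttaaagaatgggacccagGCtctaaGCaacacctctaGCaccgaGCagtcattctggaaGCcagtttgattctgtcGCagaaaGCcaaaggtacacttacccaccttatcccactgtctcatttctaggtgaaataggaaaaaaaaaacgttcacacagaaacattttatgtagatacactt
Olfr1289: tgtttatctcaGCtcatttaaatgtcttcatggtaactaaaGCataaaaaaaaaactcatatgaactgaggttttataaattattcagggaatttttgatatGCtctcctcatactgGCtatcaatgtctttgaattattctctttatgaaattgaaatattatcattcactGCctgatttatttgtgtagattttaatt
Olfr1131: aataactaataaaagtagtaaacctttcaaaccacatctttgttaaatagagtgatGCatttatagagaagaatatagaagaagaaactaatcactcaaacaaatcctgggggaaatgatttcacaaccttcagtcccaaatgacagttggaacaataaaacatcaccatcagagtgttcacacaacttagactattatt
The 4 stretches of high CpG promoters held 19, 6, 20 and 39 readable GpC sites, in the order printed, and the 3 of low CpG promoters held 8, 5 and 1. Over all autosomal genes the same 200 bases held a median of 19 sites in the high, 12 in the intermediate and 9.0 in the low CpG class, beside 16, 6.0 and 1.0 CpG dinucleotides. The classes were set from the most CpG-rich 500 bp between 900 bp before and 400 bp after the start. A start was high where such a stretch had an observed to expected CpG ratio of at least 0.75 and a GC content of at least 55%, low where no stretch reached a ratio of 0.48, and intermediate otherwise.

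The knockdown library as a whole sat slightly below Nons at day 5. The median over autosomal windows was 21.2% in Nons and 20.2% in the knockdown, and the spread over windows was narrower in the knockdown, with an SD of 7.69 points against 9.13 points. Both day 5 libraries were the most methylated of the series, the other 7 having medians from 6.41% to 14%. To remove the shift, each library was centred on its own autosomal median, and the centred difference, in percentage points, is the knockdown minus Nons after that step. Since centring leaves the narrower spread in place, values after quantile normalization of the 2 libraries, which forces 1 common distribution on both, are given beside the main values of classes and lists. Unless said to be so normalized, a difference is a centred one.

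Promoters carried lower accessibility in the knockdown than the rest of the genome did. Autosomal promoter windows stood at a median of 27.5% in Nons and 24.2% in the knockdown, and all other autosomal windows at 21.1% and 20%. The centred difference was -1.79 points at promoters (SD over the 19 autosomes 0.436, which shows the spread along the genome and not between libraries) and -0.00464 points elsewhere (SD 0.102), so that promoters were lower by an excess of -1.79 points, which was negative on 19 of 19 autosomes and ranged from -2.66 to -1.31 points. Single promoters scattered far more widely than this, with quartiles of -9.55 and 5.90 points. After quantile normalization the promoter median was -0.787 points.

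A window was called lower or higher where the centred difference reached 10 points, a fixed size and not a test. Of all windows, 18.1% were called lower and 17.0% higher, which is the background for the counts of single windows called at this size. Of 31259 promoter windows, 7414 (23.7%) were lower and 4669 (14.9%) higher. The lower calls thus made up 61.4% of all promoter calls in the centred values and 54.3% after quantile normalization, against 51.6% and 49.9% over all windows.

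The plot of promoter levels by library places the day 5 pair among the other days. Divided by the median of the remaining windows, the promoter median was highest in Nons at day 5 (1.31) and lowest in the knockdown at day 5 (1.21), while the other 7 libraries lay between 1.23 and 1.27. For high CpG promoters the ratio was 1.76 in Nons and 1.6 in the knockdown at day 5, against 1.74 to 1.88 in the other 7 libraries. On that high CpG ratio the knockdown library was the one at the edge of the series. Nons at day 5 lay within the range of the rest. On the ratio for all promoters both day 5 libraries lay outside that range. In points over other windows, high CpG promoters stood highest in Nons at day 5, at 16.1. They stood at 11.9 in the knockdown at day 5 and at 5.60 to 10.4 in the other 7 libraries.

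**Figure D1:**
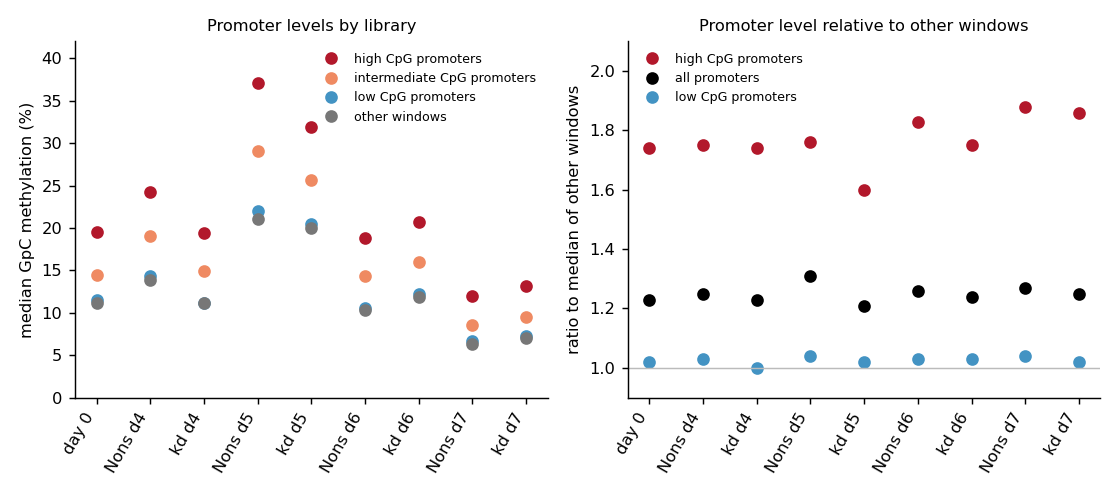
Left, median GpC methylation (percent) of autosomal high, intermediate and low CpG promoters and of other windows in each of the 9 libraries (kd, Smarcc1 knockdown; d, day), 1 point a library. Right, the promoter medians divided by the median of other windows, on an axis that does not start at 0. High CpG promoters of the knockdown at day 5 sit at 1.6 and those of the other 8 libraries at 1.74 or above.

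CpG-rich promoters carried most of the difference. High CpG promoters (9046 autosomal windows) stood at 37.1% in Nons and 31.9% in the knockdown, with a centred difference of -3.93 points (SD over autosomes 0.530). Intermediate promoters (5798 windows) had -2.08 points (SD 0.871) and low CpG promoters (15367 windows), at 22.0% and 20.5%, had -0.515 points (SD 0.545). The high class differed from the low class by -3.41 points (SD over autosomes 0.745), a difference of the same sign on 19 of 19 autosomes, or by -1.06 points after quantile normalization. High CpG promoters were 29.9% of the promoter windows and held 58.6% of the summed promoter difference, against 20% for the low class, which was 50.9% of the windows. By number of lower calls the classes were closer, with 38.8% of them in the high and 41.5% in the larger low class.

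Counts showed the same order. In the high CpG class 30.8% of windows were called lower and 13.3% higher, while in the low class 19.4% were lower and 15.9% higher, close to the 18.1% and 17.0% of all windows. Quantile normalization brought the class medians to -1.49, -0.839 and -0.427 points and the calls of the high class to 24.5% lower and 18.5% higher. Part of the deficit of the high class, but not the whole, was thus left when the 2 libraries were given the same spread.

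The deficit was narrow along the genome. Around protein-coding starts of the high class, windows centred at the start stood at 38.9% in Nons and 33.6% in the knockdown, a centred difference of -4.31 points, or -1.33 points after quantile normalization. At 2 kb upstream the difference was -0.665 points and at 2 kb downstream -1.21 points, and from 4 kb outward on either side it stayed near that of the flanks, for example -0.432 points at 10 kb upstream and -0.296 points at 10 kb downstream. Around low CpG starts the level in Nons was 21.2% at 10 kb upstream and 22.5% at the start. The difference at the start was -0.771 points, or -0.629 points after quantile normalization. Positions away from low CpG starts had values as large, such as -0.913 points at 5 kb upstream and -0.966 points at 12 kb downstream. Others lay nearer 0 or above it, such as 0.205 points at 5 kb downstream. Over all autosomal windows, the median difference was -2.08 points within 500 bp of the nearest start (-0.828 after quantile normalization), -1.03 points at 1000 to 2000 bp, -0.318 points at 2000 to 3000 bp, and 0.486 points beyond 500000 bp.

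**Figure D2:**
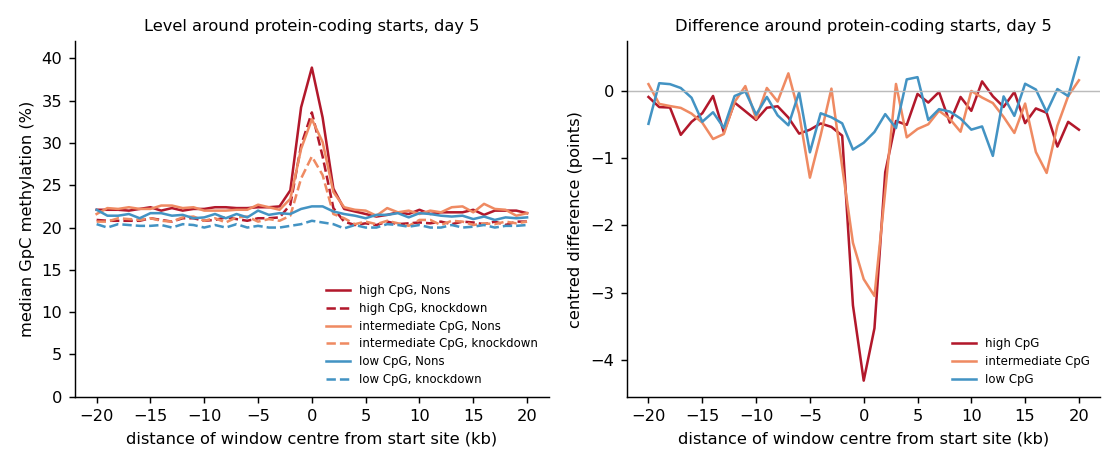
Left, median GpC methylation (percent) at day 5 by the distance of the window centre from a protein-coding start (kb, upstream negative), for start sites of the 3 CpG classes on autosomes, with Nons as solid and the knockdown as dashed lines. Right, the median centred difference (points) at the same positions, which reaches -4.31 at high CpG starts. At low CpG starts it is -0.771, a size also met at positions away from these starts.

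Other parts of genes did not share it. Outside promoters, windows that overlapped an exon had a median centred difference of -0.0717 points, windows within introns -0.0628 points and intergenic windows 0.0599 points. Windows with the 3′ end of a protein-coding gene and no start had 0.0733 points (17388 windows), with 17.4% called lower and 16.8% higher.

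CpG-rich windows not counted as promoters were also lower, though such windows may border a promoter or hold a start of another transcript, and their distance from starts was not split out. Among non-promoter windows with more than 4 CpG per 100 bp (2578 windows) the level was 32.6% in Nons and 28.3% in the knockdown, a centred difference of -3.42 points (SD over autosomes 0.891), while promoter windows of the same density had -4.00 points (SD 0.922). After quantile normalization these became -1.68 and -1.30 points, with the promoters the less negative of the pair. At 2 to 3 CpG per 100 bp the values were -1.02 points in other windows and -3.07 points in promoters, and below 0.5 CpG per 100 bp they were 0.398 and 0.130 points. At 2 to 3 CpG the quantile-normalized values were -0.708 and -1.29 points. The difference therefore followed CpG density in both kinds of window, and at middle densities it was larger at promoters.

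GC content moved with the result over the whole genome. Non-promoter windows went from 0.687 points at a GC content up to 38% to -1.67 points above 55%, and promoter windows from 0.255 to -3.87 points. Within each of 6 bands of GC content promoters were still below other windows, by -0.432 points in the lowest band and by -2.13 and -2.20 points in the 2 highest, and the 3 highest bands had this sign on 19 of 19 autosomes. After quantile normalization promoters and other windows stood at -1.61 and -1.01 points between 50% and 55% GC, and at -1.52 and -1.39 points above 55%, so the gap in the top band was nearly lost. At day 4 non-promoter windows showed no such slope up to 55% GC, their medians lying between -0.0137 and 0.138 points, but above 55% they had -0.658 points. Whether GC content, GpC density or window length had a part in the day 5 values was not tested, and these features are tied to CpG content.

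**Figure D3:**
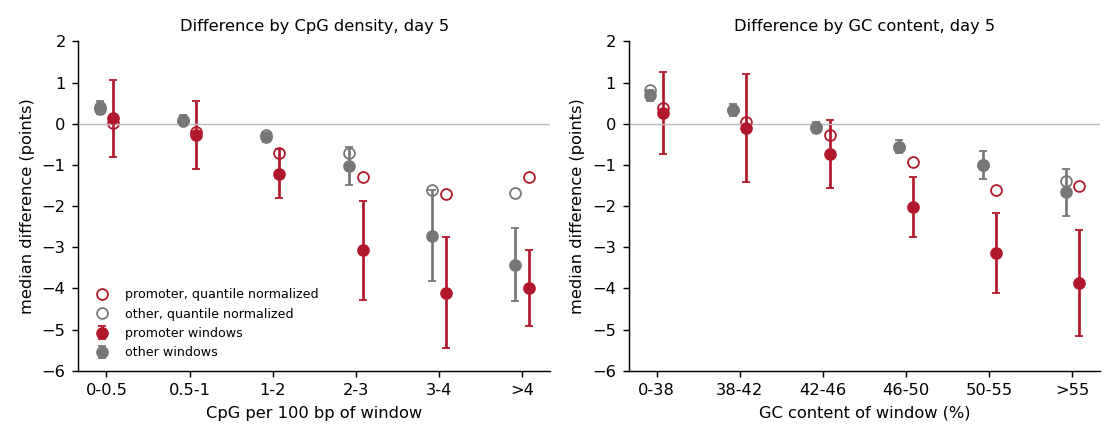
Median difference at day 5 (points, knockdown minus Nons) of autosomal promoter and other windows by CpG per 100 bp (left) and GC content in percent (right). Filled points are centred differences with the SD over the 19 autosomes as bars and open points are medians after quantile normalization. Promoter windows reach -4.10 points at 3 to 4 CpG per 100 bp and other windows -3.42 points above 4.

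The level of a window outside the contrast also moved with the result. Windows were grouped by their mean over the 7 libraries of other days, which share no data with the day 5 pair. Between 8% and 10% the centred difference was -0.106 points at promoters and 0.239 points elsewhere. Between 14% and 18% it was -3.14 and -0.881 points, and between 18% and 24% it was -3.56 and -2.66 points. Open windows outside promoters were thus lower as well, and the gap between promoters and other windows was widest, at -2.25 points, in the 14% to 18% group. After quantile normalization promoters and other windows had -1.53 and -0.359 points in that group, -1.11 and -0.836 points between 18% and 24%, and -0.133 and -0.0397 points above 24%, where the deficit was all but gone. Over the promoters of the 14% to 18% group the high CpG class had, in centred values, -4.66 points and the low CpG class -1.54 points.

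Protein-coding promoters differed more than those of long non-coding RNA genes, and the CpG classes of the starts moved with that. The centred difference was -2.50 points for protein-coding (19352 windows), -0.656 points for long non-coding RNA (7930 windows) and -0.448 points for TEC genes (loci whose transcription is still to be checked by experiment, 2929 windows). After quantile normalization the gap between the first 2 was -0.613 points, within its SD over autosomes of 1.03. Within the high class the values were -3.99 and -3.27 points for protein-coding and long non-coding RNA promoters, a difference of -0.723 points that was smaller than its SD over autosomes of 3.13 (quantile-normalized values -1.50 and -1.49 points). Within the low class they were -0.643 and -0.354 points.

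Promoters that were already open in undifferentiated cells had larger differences. Split into 3 equal groups by the day 0 level, from low to high, promoters had medians of -1.10, -1.51 and -2.87 points, but the highest group was only -0.282 points from the lowest after quantile normalization. Within the high CpG class the order was lost, at -4.21, -3.90 and -3.84 points, while in the low class the 3 groups had -0.193, -0.558 and -1.32 points. Quantile-normalized, the high class had -1.92, -1.67 and -1.20 points and the low class -0.333, -0.359 and -0.753 points. Within the high class, the lowest and highest groups of the 1 day 0 library thus had like differences, 0.365 points apart with an SD over autosomes of 1.54. These groups stood at 7.27% and 26.2% at day 0, but at 35.1% and 38.3% in Nons at day 5. How far noise of the day 0 library sorted them was not tested.

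Divergent promoters, where 2 genes start back to back within 1000 bp, stood at -4.01 points (1716 windows) against -1.67 points for the rest, or -1.57 and -0.751 points after quantile normalization. Most were CpG-rich, and within the high class the values were -4.39 and -3.88 points, apart by less than the SD over autosomes of 2.34, and quantile normalization turned their order to -1.39 and -1.50 points. Windows with 3 or more starts had -5.20 points (-2.72 after quantile normalization), but were only 134. By gene length, single protein-coding starts had -1.40, -2.69 and -3.10 points from the shortest to the longest of 3 equal groups, or -0.598, -1.28 and -1.30 points after quantile normalization.

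High CpG promoters were also split by short motifs before the start. The GC box bound by Sp1-like factors (GGGCGG, on either strand) was in 28.6% of all 200-base stretches and in 65.4% of those of high CpG protein-coding starts, where windows with it had -4.78 points and windows without it -3.10 points. Lower calls were 33.6% with the GC box and 27.4% without it. The gap of -1.69 points was within the SD of single-autosome gaps, 1.88, which is not the error of the pooled gap. Quantile normalization brought the pair to -2.10 and -0.978 points. The core of the NRF1 site (GCATGCGC, 1.99% of all stretches, 304 starts here) went with -5.54 points against -4.03 points without it. The CCAAT box (CCAAT, 30%) went with -3.67 against -4.31 points and the TATA box (TATAAA, 10.2%, 256 starts) with -2.74 against -4.16 points. The AP-1 site (TGANTCA, 134 starts) and the YY1 core (ATGGCGG, 167 starts) had wider gaps, of -2.17 and -1.91 points. Each of these gaps was smaller than its SD over autosomes. A match names letters in a stretch and not a bound site. The GC box, NRF1 and YY1 letters themselves hold a CpG, and CpG density was not held equal in these splits.

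Every chromosome shared the promoter deficit. Promoter medians of single autosomes ran from -2.84 points on chromosome 11 to -1.25 points on chromosome 10, and high CpG promoters from -4.87 points on chromosome 2 to -2.87 points on chromosome 15. After quantile normalization these 4 values were -1.64, -0.193, -2.50 and -0.476 points. The X, of which female cells silence 1 copy during these days, did not stand apart in these values, which hold both alleles together. A difference between its copies, such as the study reported for the FVB copy at an earlier day, could not be seen here. Averaging over genes, the study saw no effect of the knockdown on the CAST copy or autosomes, but held undetected gene-specific changes likely. Why the autosomal promoter values here differ from that report was not tested. Promoters of the X had -1.52 points and its high CpG promoters -3.54 points (231 windows), or -0.447 and -0.839 points after quantile normalization. Other X windows had 0.133 points. Xist, the RNA that coats the X to be silenced, was at 37.7% in Nons and 31.2% in the knockdown in its start window (chrX:103482394-103485425), and its antisense partner Tsix at 37.2% and 40.5% (chrX:103430670-103434150). Both centred differences, -5.53 and 4.34 points, were under the size for a call, and the promoters of X inactivation regulators as a list had a median of -3.83 points (21 windows, 5 lower and 5 higher), or -1.94 points after quantile normalization.

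Gene lists were read against the promoter background of 23.7% lower and 14.9% higher and the promoter median of -1.79 points. Lists differed in their share of high CpG promoters, whose background was 30.8% lower, 13.3% higher and a median of -3.93 points. A list rich in that class should be set beside those values. Of 32 lists, 25 had a median below 0 in centred values and 17 after quantile normalization. Members of a list shared a function and not a library, so a list median carries the noise of its windows, given below as the SE over members.

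Among lists made up mostly of genes that every cell uses, cytosolic ribosomal protein promoters were the lowest. The list (85 windows, 84.7% of high CpG class) stood at 40.3% in Nons and 31.8% in the knockdown, with a median of -4.87 points (SE 1.33), 28 lower and 6 higher. Its lower calls, 32.9% of windows, were near the 30.8% of the high CpG class, and its higher calls, 7.06%, were below the 13.3% there. The list median lay within 1 SE of the class median of -3.93 points. After quantile normalization the list had -2.45 points. Rps29, a small-subunit protein, was the lowest member (chr12:69158865-69161804), at 63.2% in Nons and 26.0% in the knockdown at day 5. Over the other libraries it was at 20.7% at day 0, at 21.4%, 21.6% and 18.6% in Nons at days 4, 6 and 7 and at 19.3%, 49.1% and 14% in the knockdown. Its Nons value at day 5 was thus the one far from the rest of that arm, though picking the lowest member favours a high Nons value. Rpl10l lay nearest the list median with 36.1% and 30.2%, and Rpl18, a large-subunit protein, was highest with 13.8% and 37.4%.

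The other housekeeping lists lay nearer to the promoter median, though 64.6% to 92.0% of their windows were of the high CpG class. All 6 medians lay above the -3.93 points of that class. Proteasome subunits had -3.57 points (48 windows, 16 lower and 6 higher), nuclear genes of the respiratory chain -2.64 points (76 windows, 23 and 9), DNA replication and cell cycle genes -2.32 points (44 windows, 10 and 4), mitochondrial ribosomal proteins -2.16 points (77 windows, 12 and 10), splicing factors -1.83 points (53 windows, 18 and 8) and replication-dependent histones -1.68 points (50 windows, 17 and 6). Their centred medians lay within 1 SE of the promoter median. After quantile normalization the same lists, in that order, had -1.49, 0.131, 0.434, -0.296, -1.14 and 1.83 points, so that 3 of the 6 turned to above 0. Single members went far in both directions. Psme2, a proteasome activator subunit, was at 61.9% in Nons and 26.2% in the knockdown, and Mcm3, a subunit of the replicative helicase, at 51.3% and 18.6%. Ndufa8 of respiratory complex I was at 16.7% and 47.1% and Hist1h1c, a linker histone, at 39.9% and 69.1%. The Psme2 window also held the start of Rnf31, and the Ndufa8 window that of Morn5.

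The genes of chromatin regulators did not move as 1 group. BAF subunit promoters, the complex that the hairpin targets, had a median of -4.09 points (29 windows, SE 2.16, 7 lower and 6 higher), which became 0.577 points after quantile normalization. Smarca4, the ATPase of the complex, was the member at the median (chr9:21616147-21618277), with 49.4% in Nons and 44.3% in the knockdown. Smarcc2, the paralogue of Smarcc1, was lowest (chr10:128458099-128460014) at 56.2% and 36.4%, and Phf10, an accessory subunit, highest (chr17:14959020-14963812) at 18.9% and 43.7%. Other remodellers, of the CHD, ISWI and INO80 families, had 1.59 points (29 windows, 6 lower and 7 higher) and Polycomb genes 0.683 points (30 windows, 8 and 6), which became 4.32 and 3.6 points after quantile normalization. Bmi1, a Polycomb repressive complex 1 subunit, was the lowest of these (chr2:18676313-18678197), at 65.0% in Nons and 22.9% in the knockdown at day 5, against 35.3% at day 0 and between 23.5% and 40.7% in the other Nons libraries. Chd8, in a window shared with Gm43766, was the lowest of the other remodellers (52.8% and 23.4%).

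Lists of cell state gave small differences with wide spread. The pluripotency network had -1.80 points (29 windows, 5 lower and 4 higher), next to the promoter median, and -0.224 points after quantile normalization. Klf4, a factor of naive pluripotency, was lowest (chr4:55531033-55533028, 62.1% and 35.5%). Dppa3, a maternal factor also known as Stella, was the member at the median (33.3% and 30.5%). Lin28a, an RNA-binding protein, was highest (chr4:134017347-134019441, in a window shared with Gm13061, 25.8% and 57.4%). Genes of the primed epiblast had -2.62 points (17 windows, 6 lower and 3 higher; 0.458 points after quantile normalization), with Dnmt3a, a DNA methyltransferase, lowest (40% and 11.4%) and Foxd3, a forkhead factor, highest (20.4% and 43.8%). Endothelial, haematopoietic and extraembryonic markers, which mark other cell types a differentiating culture may hold, had -1.69, 3.05 and -1.68 points over 10, 10 and 14 windows, or -1.54, 4.71 and -1.56 points after quantile normalization. Accessibility of a promoter does not measure expression, so the makeup of the cultures was not read from them.

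Among regulators of the germ layers, the endoderm list lay below the promoter median by more than 1 SE in centred values. The neural and mesoderm lists did not. Of the endoderm windows 57.9% were in the high CpG class, and the list lay within 1 SE of that class median of -3.93 points. After quantile normalization it lay within 1 SE (3.32) of the promoter median of -0.787 points. Endoderm transcription factors had -7.12 points (19 windows, SE 3.31, 7 lower and 2 higher), at 32.2% in Nons and 24.4% in the knockdown, and -3.87 points after quantile normalization. Foxa3, a forkhead factor, was lowest (chr7:19022277-19024469, in a window shared with Sympk) at 57.4% and 26.5%, Mnx1 was at the median (41.5% and 33.3%) and Pdx1, a pancreatic regulator, was highest at 10% and 39.6%. Neural factors had -3.38 points (30 windows, SE 2.55, 9 lower and 5 higher) and mesoderm factors -2.64 points (31 windows, SE 2.26, 7 and 5), or -1.0 and -2.83 points after quantile normalization. Neurog2, a proneural factor, was the lowest neural member (chr3:127632118-127633989, 55.9% and 18.2%), and Nkx2-2 the highest (21.1% and 53.8%). Wnt, Fgf and Bmp ligands had -3.77 points (65 windows, 16 lower and 7 higher) and Hox genes -1.44 points (36 windows, 8 and 5), or -2.11 and 0.00260 points after quantile normalization. Among the latter, Hoxd13 (58.3% and 22.0%) and Hoxd8 (16.2% and 40.2%) of the same cluster marked the ends.

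Smaller lists lay on both sides of the promoter median. p53 target genes had the lowest median of the 32, -8.95 points (21 windows, SE 2.58, 9 lower and 3 higher) and -5.37 points after quantile normalization, from Fas, a death receptor, at 60.4% and 35.2%, through Perp, a membrane protein of apoptosis and cell junctions, at 31.7% and 21.7%, to Pmaip1, which encodes the death protein Noxa, at 36.5% and 47.4%. At days 4, 6 and 7 the same list had -0.223, 7.25 and -4.61 points, so its order among lists was not kept between days. Imprinted genes had -4.64 points (48 windows, 17 lower and 3 higher), with Slc22a18, a transporter gene expressed from the maternal copy, lowest (43% and 20.3%) and Ddc, a decarboxylase gene, highest (13.6% and 34.0%), and -3.64, 1.97 and -0.712 points at days 4, 6 and 7. Their quantile-normalized median at day 5 was -2.38 points. X genes known to escape silencing had -3.10 points (13 windows, 3 lower and 0 higher), which became 0.816 points after quantile normalization. Immediate early genes had 1.34 points (24 windows, 4 and 3), interferon and antiviral genes -1.10 points (27 windows, 8 and 8) and germline genes -0.413 points (33 windows, 8 and 4), among them Tdrd6, of the germ granule, at 70.8% in Nons and 30.6% in the knockdown. These 3 lists had 1.83, -0.0166 and 0.769 points after quantile normalization.

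The chemoreceptor and keratin families, tissue-restricted genes with CpG-poor promoters, had centred medians near 0. Olfactory receptors (1077 windows, 0% of high CpG class) stood at 20.9% in Nons and 20.4% in the knockdown and had 0.357 points (SE 0.325), with 17.2% lower and 16.9% higher, near the 18.1% and 17.0% of all windows. The extremes of this family, Olfr1289 at 62.9% and 18% and Olfr1131 at 8.51% and 35.9%, were as far apart as those of the ribosomal genes. Vomeronasal receptors had 0.423 points (315 windows) and keratins and keratin-associated proteins -0.290 points (102 windows). The 3 families had 0.441, 0.0266 and -0.0482 points after quantile normalization. Zfp zinc-finger genes, of which 48.2% were in the high class, had -2.73 points (386 windows, SE 0.654, 102 lower and 52 higher), and clustered protocadherins, with 10.5% in the high class, 2.53 points (57 windows, SE 1.33, 10 and 12), or -0.750 and 3.96 points after quantile normalization. In these families near-identical copies can share reads, so the value of a single member is uncertain.

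**Figure D4:**
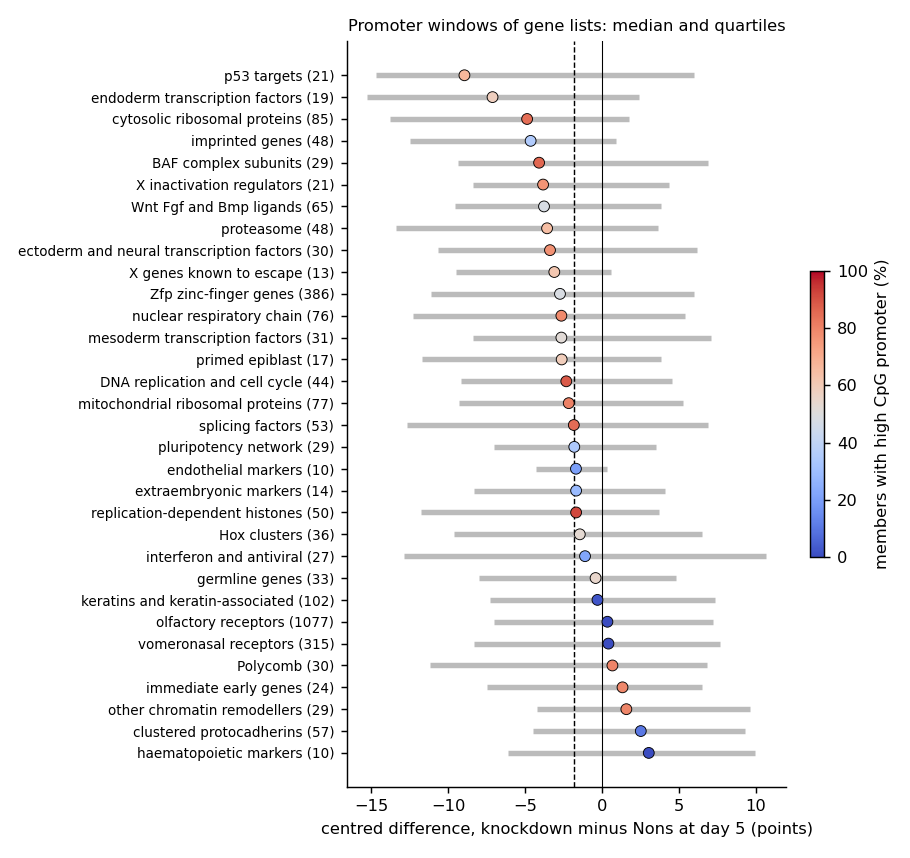
Median centred difference (points, knockdown minus Nons at day 5) of the promoter windows of 32 gene lists, with the number of windows in brackets, grey bars from the first to the third quartile, and the colour of a point giving the percent of members in the high CpG class. The dashed line marks the autosomal promoter median of -1.79 and the solid line 0. The quartile bars of all 32 lists span both lines.

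Single promoters were then ordered by the mean of the start window and its 2 neighbours, which had to share a sign. Of 20250 promoter windows with a protein-coding start, 5272 met this, 3320 of them lower and 1952 higher. The mean reached 10 points in 1421 lower and 615 higher cases. The same counts were not made over all windows or after quantile normalization. The background of calls given above is for single windows, so these counts have none to be read against. The 5 lowest were Fam205a2, Ephx4, Ccl27b, Zfp616 and Ier5l, with means of -27.0, -26.5, -26.4, -26.3 and -26.0 points, and the 5 highest were Vmn1r107, Gm13539, Fgfr3, Snx3 and Fthl17f, with 25.8, 24.5, 22.9, 21.6 and 21.6 points. The sixth on either side had -25.4 and 20.9 points, so the order was a continuum. The rank of Zfp616 came from its neighbours at -36.0 and -38.2 points, since its own start window, at 20.8% and 14.9%, had -4.85 points. Fam205a2 and Ccl27b are neighbours in a repeated region of chromosome 4 with windows of 98612 and 110353 bp, and the Vmn1r107 window spans 87151 bp, which makes these 3 uncertain.

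Among the genes with windows of ordinary length, Ier5l, a relative of an immediate early gene, had a high CpG promoter (chr2:30473465-30474653) at 71.6% in Nons and 35.8% in the knockdown at day 5. In the other libraries it was at 0% at day 0, at 29.8%, 4.76% and 10.4% in Nons at days 4, 6 and 7 and at 36.4%, 0% and 57.1% in the knockdown. Ephx4, an epoxide hydrolase, had a low CpG promoter (chr5:107399957-107402749) at 48.1% and 16.2% at day 5, and between 4.63% and 18.8% in the other 7 libraries. Fgfr3, a receptor of fibroblast growth factors, was at 23.9% and 44% (chr5:33720924-33722633), and Snx3, a sorting nexin of endosomes, at 34.7% and 40.6%. For Ephx4 the knockdown value lay within the range of the other days and the Nons value did not. A gene picked for a large negative difference will often have such a Nons value, so this does not show which arm changed.

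At the scale of 1 Mb the difference was small and followed GC content and gene density. Of 2548 bins with at least 100 windows, 382 (15.0%) had a mean centred difference of -1 point or less and 162 (6.36%) of 1 point or more. The bins had a median of -0.227 points, an SD of 0.758 points and a range from -2.51 to 2.58 points, and the SE of a bin from its own windows had a median of 0.608 points, so that much of the spread between bins is of the size that the scatter of windows alone gives. Leaving out promoter windows kept 316 lower and 183 higher bins. By the median over windows in place of the mean the counts were 298 and 331, and after quantile normalization 194 and 263, so the surplus of lower bins was turned round by either choice.

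Gene-rich bins were the lower ones. Bins without a protein-coding start had a median of 0.159 points (292 bins, 10.6% lower and 15.4% higher), and bins with 31 or more had -0.694 points (114 bins, 35.1% lower and 0.877% higher), or -0.527 points without their promoter windows. By GC content the medians went from 0.236 points up to 38% to -0.712 points above 46%. Among bins of 40% to 42% GC, those with 0, 1 to 5, 6 to 10 and 11 or more starts had -0.0337, -0.0708, -0.0541 and -0.00863 points, with no order by gene number. Across the 2548 bins, which share their 2 libraries and differ in base composition, Pearson's r with GC content was -0.409 and with the number of high CpG starts -0.293. The r with GC content was 0.113, 0.207 and 0.543 for the differences at days 4, 6 and 7, of the opposite sign and at day 7 of a larger size. The r of a bin with its neighbour was 0.120 over 2516 pairs.

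**Figure D5:**
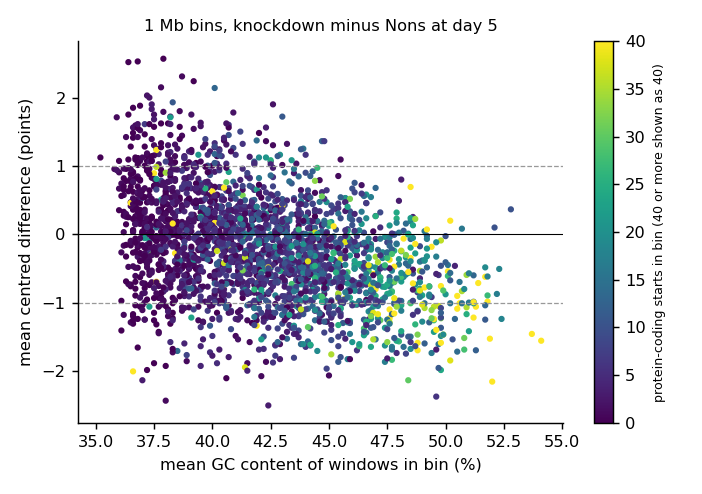
Mean centred difference at day 5 (points, knockdown minus Nons) of 2548 bins of 1 Mb against the mean GC content of their windows (percent), coloured by the number of protein-coding starts. Dashed lines mark the call sizes of -1 and 1. Bins above 46% GC have a median of -0.712 points and 0 of them reach 1 point.

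The 2 lowest bins were chr10:44000001-45000000 with the starts of Crybg1, Atg5 and Prdm1 (24% in Nons, 20.5% in the knockdown, -2.51 points, SE over windows 0.552) and chr10:114000001-115000000 with Trhde (-2.44 points). Atg5 acts in autophagy and Prdm1 is a repressor that directs germ cell and lymphoid fates. The highest were chr19:51000001-52000000, chr6:26000001-27000000 and chr3:44000001-45000000, with 2.58, 2.54 and 2.53 points and no protein-coding start. At days 4, 6 and 7 the lowest bin had -0.706, -0.368 and 0.196 points and the highest -0.394, -0.562 and 0.663 points.

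Days 4, 6 and 7 were computed the same way and share no library with day 5. The promoter excess over other windows was -0.849 points at day 4 (SD over autosomes 0.336), -1.79 points at day 5 (0.413), 0.0217 points at day 6 (0.370) and 0.0841 points at day 7 (0.251). High minus low CpG promoters gave -1.80, -3.41, 0.489 and 0.540 points. In points, the class order seen at day 5 was thus present at day 4 with a smaller size. It was absent at days 6 and 7, when the levels of both arms were lower. As a ratio to other windows, high CpG promoters had 1.75 in Nons and 1.74 in the knockdown at day 4. They had 1.83 and 1.75 at day 6 and 1.88 and 1.86 at day 7, so the order of days depended on the scale. With 1 library a side, the difference between days was not tested.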

How the data were processed

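GpC methylation was measured by NOMe-seq in 9 libraries of an FVB/CAST F1 mESC line. Per the study's methods and the submitters' processing notes, the authors aligned reads with Bismark to mm10 with strain differences masked, extracted GpC calls with coverage2cytosine in its NOMe-seq mode and summarised them in SeqMonk. The deposited values are the percent of methylated GpC calls, both alleles together, in windows named as spanning 200 read positions each. The study's methods describe SeqMonk's enrichment normalization for averages over a smaller number of GpC positions than the windows used here hold, and whether it was applied to the deposited values is not stated. The depth is unknown, so no interval could be given. Windows shorten where coverage and GpC sites are dense (median 2807 bp, promoters 2426 bp).

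Each library was centred on its autosomal median, and knockdown minus Nons was summarised as a median over windows (Python 3.11.15, pandas 2.3.3, numpy 2.4.6). The SD of that median over the 19 autosomes describes spread along the genome, not between libraries. It is also not the error of a value pooled over autosomes, so a gap within it is not shown to be absent. Genes were GENCODE M21 on GRCm38, 34568 in all, 1 annotated 5′ end each, of which 34392 lay in a window used. Sequences came from the GRCm38 reference. The scripts were tested on simulated data. Groups came from the sample titles.

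The gene lists and comparisons were chosen with earlier results of these data known. Genes were named by rule: for each list described, the members with the lowest, highest and nearest-to-median difference (not all are printed), the 5 lowest and 5 highest promoters over 3 windows, Smarcc1, Smarca4, Xist and Tsix, and the 3 lowest and highest bins, of which 1 of the lowest is not reported here. The second Smarcc1 start, the sequences shown and the bands of gene number for bins were chosen after values were seen. Alternatives covered the removal of the shift, the scale, the choice of windows and the thresholds.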

Additional observations from a re-analysis of the deposited data

Results flagged for a closer look

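The promoter difference changed sign between days, which is why it is set out here. Promoter windows minus other windows, knockdown minus Nons, gave -0.849 points at day 4 and -1.79 points at day 5, but 0.0217 points at day 6 and 0.0841 points at day 7. The high minus low CpG promoter difference was -1.80 and -3.41 points at days 4 and 5 against 0.489 and 0.540 points at days 6 and 7. Each day has 1 library a side, so these differences between days were not tested, and the day 6 and day 7 values are smaller than their SD over autosomes of 0.370 and 0.251 (promoters) and 0.790 and 0.696 (classes).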

How the results depend on the processing

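Quantile normalization of both day 5 libraries gave -0.787 points for the promoter difference and -0.792 points for the excess over other windows, -1.06 points for high minus low CpG, -0.613 points for protein-coding minus long non-coding RNA and -0.282 points for the highest minus the lowest of 3 groups by day 0 level, all of unchanged sign and the last 2 within their SD over autosomes of 1.03 and 0.715. With no removal of the shift the promoter difference was -2.80 points. The other 6 alternatives on windows, scale and scaling kept these 5 values within 1 SD over autosomes, as did a promoter defined by a window centre within 1 kb of a start. Promoter calls were 12156 lower and 8610 higher at 5 points and 2030 and 887 at 20 points. Calls at these sizes were not counted over all windows, so they have no background to be read against. Bins numbered 194 lower and 263 higher after quantile normalization, and 331 higher by the median over windows. Of 288 list medians under 9 alternatives, 17 changed sign, 6 of them from a centred median more than 1 SE from 0. After quantile normalization 8 lists turned from below to above 0, namely the nuclear respiratory chain (0.131 points), DNA replication and cell cycle (0.434), BAF complex subunits (0.577), X genes known to escape (0.816), histones (1.83), primed epiblast (0.458), Hox (0.00260) and germline genes (0.769). With no removal of the shift olfactory receptors (-0.653), vomeronasal receptors (-0.587) and Polycomb genes (-0.327) were below 0, and by the mean over windows olfactory receptors (-0.0747), Polycomb (-1.76) and immediate early genes (-0.587) were. With the window centre within 1 kb of a start histones (0.877), keratins (0.896) and extraembryonic markers (2.72) were above 0. The cause of these changes was not tested. No paired analysis was possible because each condition and day has 1 library. Unknown depth limits every single-window value.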

Other observations

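The 4 mitochondrial windows, which carry no nucleosomes, had a mean of 81.7% in Nons and 81.6% in the knockdown at day 5, close to each other while the nuclear medians were 21.2% and 20.2%. Across the series the mitochondrial mean lay between 73.6% (knockdown, day 7) and 86.8% (Nons, day 4). The 246 windows of the Y chromosome, which female cells do not carry, had medians of 20.6% in Nons and 19.8% in the knockdown over 245 windows with a value.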
